A study of Caenorhabditis elegans with 2 samples.

Results

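DAF-12 is a nuclear steroid hormone receptor of Caenorhabditis elegans, and the 4258 regions described here are those of an L4 larval DAF-12 ChIP-seq experiment that lie at the promoters of autosomal protein-coding genes. They were taken by position alone from the 30000 ce11 regions called on both replicates together: the summit, the highest point of a region, had to lie on an autosome, from 500 bp upstream to 100 bp downstream of a protein-coding transcript start in the Ensembl annotation. They made up 17.7% of the 24119 autosomal regions. Chromatin came from whole mixed-sex larvae of strain OP222, genotype unc-119(ed3) III; wgIs222, in which an integrated transgene supplies eGFP-tagged daf-12. There was 1 group of 2 biological replicates. It came from 1 transgenic strain and mixed all cell types of the larva, and the labels give the age as unknown. The antibody entry of the labels reads daf-12, while their description names the eGFP fusion. Without a second condition there was no contrast to test, so shares and medians are set beside the same quantity over the other 19861 autosomal regions, as descriptions with no p-value. The files give no read numbers, so depth is unknown. Input or control reads were not used here.

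DAF-12 is bound by dafachronic acids, steroid hormones made from cholesterol. With ligand it promotes reproductive development, and without ligand it acts with the corepressor DIN-1 in the decision to form a dauer larva, an arrested stage that survives harsh conditions. It also times stage transitions through let-7 family microRNAs. As a nuclear receptor it contacts DNA through zinc fingers, and hexamers such as AGTGCA and AGGACA are known as its half-sites. Worm promoters are compact and usually lie a short distance upstream of the gene. Many worm transcripts gain a spliced leader that replaces their original 5′ end, so an annotated start can lie downstream of the site where transcription begins.

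The sequences at 9 of the summits are given first, because the strongest and the most recurrent regions are described by name afterwards. Each reaches 50 bases to either side of the summit, from the RefSeq WBcel235 (ce11) genome, written 5′ to 3′ on the strand of the gene with the nearest start, and none holds an annotated UTR base. Capitals mark AGTGCA and AGGACA, the TATA-like hexamer TATAAA and the GA repeat GAGAGAGA, each read on either strand. The genes cdc-48.1, M01H9.3, hsp-1, ogt-1, nhl-2 and Y97E10AR.1 are among the 25 with the largest signal. The ribosomal protein genes rpl-3 and rps-1 have the strongest regions of the ribosomal gene list, and htz-1 was chosen after its values were seen, for its high rank in both replicates.
cdc-48.1 (chrII:10563540-10563640, - strand): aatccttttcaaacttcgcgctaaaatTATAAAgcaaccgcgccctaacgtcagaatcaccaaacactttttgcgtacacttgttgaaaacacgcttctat
M01H9.3 (chrIV:4477068-4477168, - strand): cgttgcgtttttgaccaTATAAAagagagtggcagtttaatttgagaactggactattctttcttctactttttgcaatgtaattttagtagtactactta
hsp-1 (chrIV:17278581-17278681, + strand): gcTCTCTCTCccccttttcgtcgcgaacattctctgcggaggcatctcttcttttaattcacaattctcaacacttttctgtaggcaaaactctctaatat
ogt-1 (chrIII:7153952-7154052, - strand): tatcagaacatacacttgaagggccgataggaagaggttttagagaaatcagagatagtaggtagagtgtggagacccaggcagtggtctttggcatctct
rpl-3 (chrIII:3867563-3867663, + strand): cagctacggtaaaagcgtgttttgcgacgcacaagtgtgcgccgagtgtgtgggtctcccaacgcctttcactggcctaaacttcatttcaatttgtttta
rps-1 (chrIII:4475575-4475675, + strand): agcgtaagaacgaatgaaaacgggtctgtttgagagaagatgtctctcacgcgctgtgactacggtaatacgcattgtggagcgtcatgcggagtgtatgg
nhl-2 (chrIII:4899214-4899314, - strand): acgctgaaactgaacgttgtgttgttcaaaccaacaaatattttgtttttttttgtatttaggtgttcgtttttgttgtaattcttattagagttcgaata
Y97E10AR.1 (chrV:8000983-8001083, + strand): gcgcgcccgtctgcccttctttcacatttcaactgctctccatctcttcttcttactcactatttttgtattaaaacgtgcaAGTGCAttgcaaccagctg
htz-1 (chrIV:4446023-4446123, + strand): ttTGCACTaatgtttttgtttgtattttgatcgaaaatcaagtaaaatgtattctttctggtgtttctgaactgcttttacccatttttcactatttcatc
A half-site hexamer lay within these stretches at Y97E10AR.1 and htz-1, in each case AGTGCA. The strongest region, at cdc-48.1, held TATAAA and no half-site.

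Promoter windows held more regions per base than the rest of the autosomes. The windows covered 12.1 Mb, or 14.7% of the autosomal bases, and held 17.7% of the autosomal summits. That is 350.5 regions per Mb of window against 282.1 per Mb elsewhere, a ratio of 1.24. The share of summits exceeded the share of bases on each of the 5 autosomes. Chromosome I had the highest density ratio at 1.37, with 758 promoter regions, and chromosome IV the lowest at 1.19, with 885. Chromosome V held the most promoter regions, 1183, and also had the largest part of its bases inside the limits, 16.4%. The lists of the single replicates gave promoter shares of 16.9% in replicate 1 and 17.3% in replicate 2, both above the covered share of bases. Each replicate list also exceeded the covered share on every autosome.

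**Figure D1:**
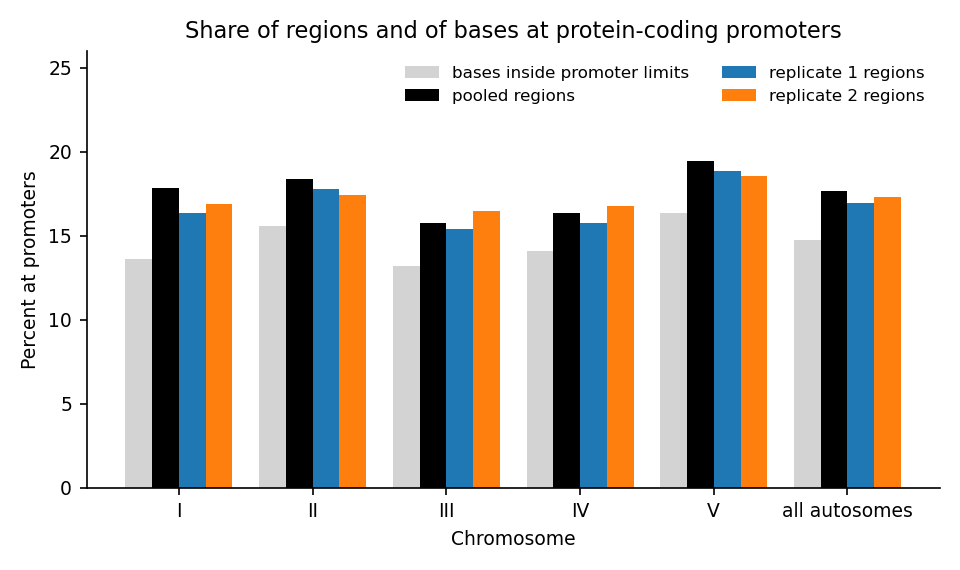
Bars give, for each autosome and for all autosomes, the percent of bases inside the promoter limits (grey) and the percent of regions with a summit there in the pooled list (black), replicate 1 (blue) and replicate 2 (orange). Over all autosomes these are 14.7%, 17.7%, 16.9% and 17.3%, and in each group of bars the grey bar is the lowest.

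Around the annotated 5′ ends of 17242 autosomal coding genes, summits were moderately denser over the last 400 bp before the start. With 1 start per gene, each 100 bp bin between 1000 and 2000 bp from the start held a mean of 502.1 pooled summits. The bins from 400 bp upstream to the start held 662 to 686, which is 1.32 to 1.37 times that flank. The count was 545 in the first 100 bp of the gene and 513 in the next. The same 4 upstream bins stood at 1.26 to 1.32 times the flank in replicate 1 and at 1.22 to 1.24 times in replicate 2. In replicate 2 the first 100 bp of the gene also stood high, at 1.18 times the flank, against 0.965 in replicate 1. Among pooled regions with a q-value below 0.05 the ratio was larger but rested on few summits, with 49 in each of the 2 bins nearest the start against a flank mean of 26.4. Single bins of that sparse profile moved widely, and the flank bin that starts 1700 bp upstream stood at 1.7 times the flank mean.

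**Figure D2:**
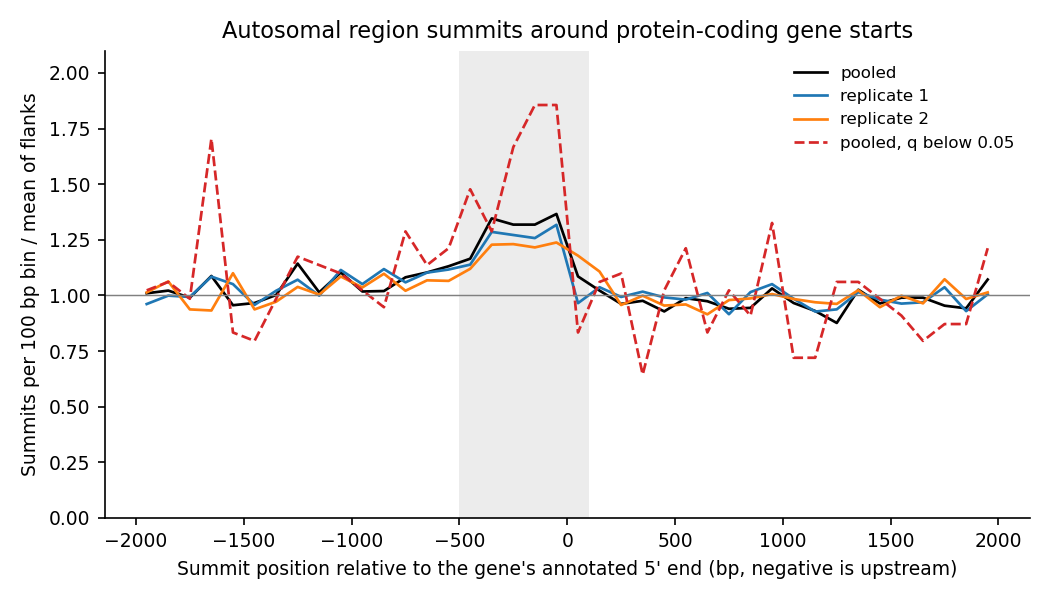
The plot gives summits per 100 bp bin relative to the mean of the flanks (more than 1000 bp from the start), against position relative to the gene's annotated 5′ end, for the pooled list, each replicate list and pooled regions of q below 0.05. The grey band marks the promoter limits; the pooled and replicate lines lie at 1.22 to 1.37 from 400 bp upstream to the start, and in the first 100 bp of the gene at 1.09 (pooled), 0.965 (replicate 1) and 1.18 (replicate 2).

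Within the promoter limits, summits were spread broadly, and by distance to the nearest start they were densest just upstream of it. Where a summit had several starts in reach only the nearest counted, which favours short distances. With 1 start per gene, the bins from 400 bp upstream to the start were nearly level, at 662 to 686 summits. The median summit lay 184 bp upstream of the nearest start, and 3571 summits (83.9%) lay upstream of it. The bin within 100 bp upstream held the most, 831, and the bin from 500 to 400 bp upstream the fewest, 595. Median signal ran from 5.71 to 5.83 in the 5 upstream bins and was 5.57 in the first 100 bp downstream, where 4.37% of regions had a q below 0.05 against 5.48% to 6.81% upstream. In bins of 50 bp, counts were lowest at the upstream limit and highest in the last bin before the start for weak and medium regions. Of the 2358 regions of signal below 6, these bins held 167 (7.08%) and 236 (10.01%), and of the 1647 of signal 6 to 10 they held 95 (5.77%) and 168 (10.20%). Of the 253 regions of signal 10 or more, the last bin before the start held 30 (11.9%) and the bin after it 11 (4.35%). The part of summits downstream of the start was 17.2%, 15.2% and 11.9% in the same order, where the limits themselves reach less far downstream than upstream. The 284 regions within 50 bp inside the upstream limit had a median signal of 5.74, and the 322 regions within 50 bp outside it 5.95. At the downstream limit the 346 regions just inside had a median of 5.49 and the 275 just outside 5.89. By annotation, 2418 summits (56.8%) lay outside coding genes, 738 (17.3%) in introns, 588 (13.8%) in coding exons and 514 (12.1%) in UTRs, so a promoter by this rule can fall inside a neighbouring gene or another isoform.

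Promoter regions were hardly stronger than other autosomal regions. Signal is the authors' enrichment value, its scale is not stated, and it ranks regions only within a list. Promoter regions had a median signal of 5.75 (quartiles 4.83 and 7.30), and the other autosomal regions 5.70 (4.81 and 7.13). Their median rank stood at the 50.9th percentile of autosomal signal, where 50 is the middle. A q-value below 0.05 was reached by 255 promoter regions, 5.99% (95% Wilson interval 5.31% to 6.74%), beside 5.31% of other autosomal regions (5.01% to 5.63%) and 5.43% of all autosomal regions. The count depended strongly on the list: in replicate 1 alone it was 717 promoter regions (17.5%, other autosomal regions 16.1%), and in replicate 2 alone 2024 (61.2%, other autosomal regions 58.7%). These intervals cover counting error only and treat neighbouring regions as independent. Within the other autosomal regions the share below 0.05 was 3.73% for summits in coding exons, 4.72% in introns, 6.54% outside coding genes and 7.20% in UTRs, so promoter regions lay between introns and sites outside genes. The q threshold acted as a cut on signal: every promoter region of q below 0.05 had a signal of at least 9.97, and only 3 reached the largest −log10 q of 2.08. Promoters took up a slightly larger part of the stronger regions, with 5 of the 25 strongest autosomal regions (20%), 22 of the top 100 (22%), 107 of the top 500 (21.4%) and 201 of the top 1000 (20.1%). Of the 12 autosomal peaks that passed the authors' threshold for reproducibility (IDR), 2 were promoter regions, at cdc-48.1 and wwp-1. These were 2 of 4258 promoter regions, beside 10 of 19861 other autosomal regions (0.0503%).

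The 25 strongest promoter regions had signals from 14.2 to 27.1 with a median of 15.3, and 22 of them had their summit upstream of the nearest start. The limits reach further upstream than downstream, so most summits fall upstream by the rule. The strongest lay 183 bp upstream of cdc-48.1 on chromosome II (10563438 to 10563741), a gene for the AAA ATPase known as p97 or VCP in mammals, which extracts ubiquitinated proteins for degradation. Its signal was 27.1 in the pooled list, 15.7 in replicate 1 (rank 41) and 8.62 in replicate 2 (rank 94). It was high in both lists. The next lay 269 bp upstream of wwp-1 on chromosome I (536701 to 537004), which encodes a HECT-type ubiquitin ligase. Its summit lay in an exon of a transcript not annotated as protein-coding. The region had a pooled signal of 22.2, with 8.97 in replicate 1 (rank 734) and 10.8 in replicate 2 (rank 36). Here replicate 2 was the stronger by rank.

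Next by pooled signal were the regions at T20D3.6 (18.3), C37C3.1 (17.6) and M01H9.3 (17.1). A chaperone gene and a protein modification gene were also among the 25. The region 328 bp upstream of hsp-1, which encodes the constitutive Hsp70 chaperone, had a pooled signal of 16.7, with 13.9 in replicate 1 (rank 57) and 5.65 in replicate 2 (rank 1165). The region 205 bp upstream of ogt-1, which encodes the O-GlcNAc transferase, had 15.5, 8.81 and 4.60 in the same order. At hsp-1 and ogt-1 replicate 1 gave the higher signal, though signals of different lists are not on a shared scale.

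Several strong regions were present in 1 replicate list only. The region 179 bp upstream of nhl-2, a TRIM-NHL protein that acts with microRNA complexes, ranked 44 in replicate 1 (signal 14.9) and overlapped no region of replicate 2. The same held for C51E3.10 (rank 38), ipgm-1, a phosphoglycerate mutase gene (rank 73), C37C3.1 (rank 174), bath-42 (rank 262) and atx-2, the ataxin-2 gene (rank 553). C25E10.5, which RefSeq annotates as an MFS domain protein, ranked 123 in replicate 2 and was missing from replicate 1. In cisd-1, an iron-sulfur protein gene, the summit lay 50 bp downstream of the nearest start, and its ranks were 39 in replicate 2 and 12522 in replicate 1. M01H9.3 showed the same direction, with rank 47 in replicate 2 and 3646 in replicate 1.

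Further regions of the 25, with pooled signals of 14.2 to 18.3, lay at T20D3.6 (HIG1 domain protein), T19A6.1, pcyt-2.1 (an enzyme of phosphatidylethanolamine synthesis), C27F2.9, lec-2 (a galectin), the cuticle collagen gene col-115, R107.2, Y97E10AR.1, AC3.5, F36A2.14 and the chemoreceptor gene str-228. The pcyt-2.1 summit lay 480 bp upstream of its start and in an exon of a transcript not annotated as protein-coding, beside the snoRNA gene Y37E3.20. Altogether 18 of the 25 overlapped a region of both replicate lists, 6 of replicate 1 alone and 1 of replicate 2 alone. A rank of 1000 or better was reached by 19 in replicate 1 and by 8 in replicate 2, and by 2 in both, cdc-48.1 and wwp-1. Strong regions elsewhere also recurred often. At signal 14 to 20, 65.4% of 26 promoter regions overlapped both replicate lists, against 79.1% of 86 other autosomal regions. At signal 12 to 14 the shares were 66.1% of 59 and 57.3% of 239.

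**Figure D3:**
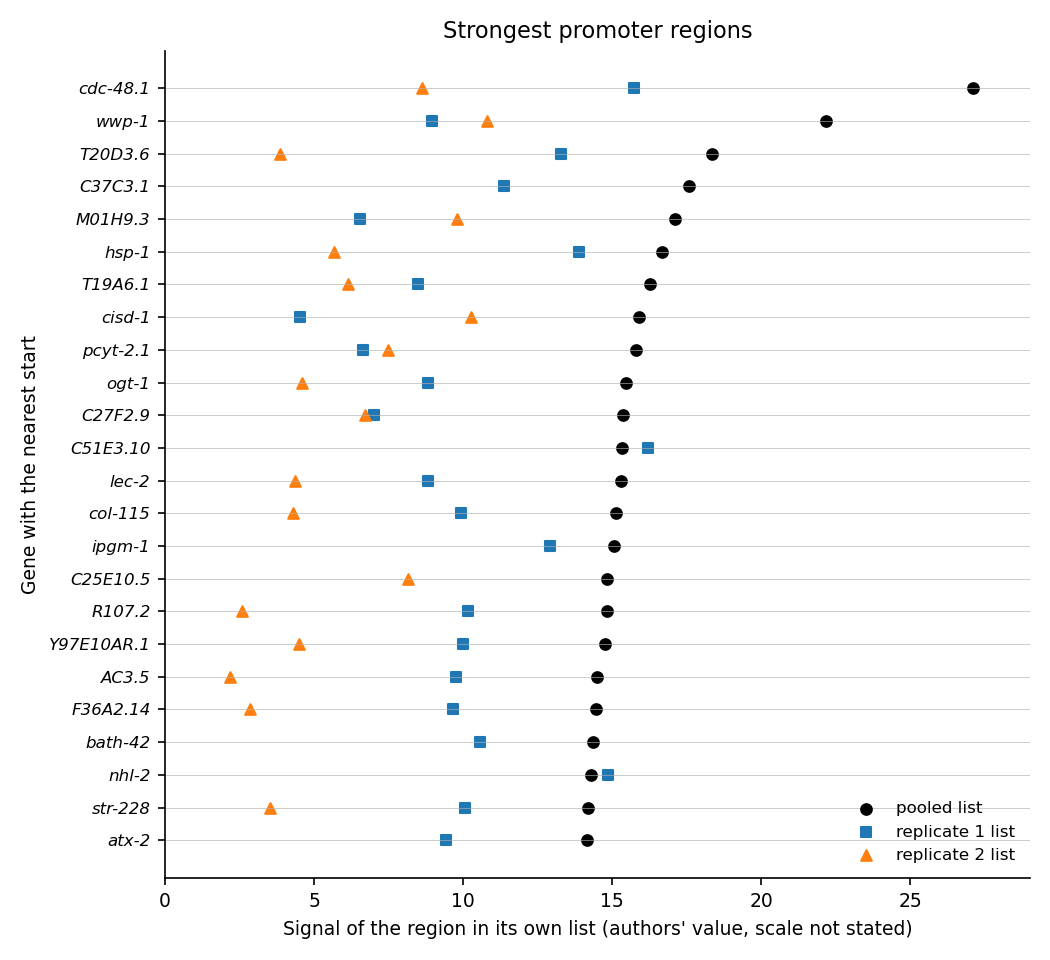
Points give the signal of 24 of the 25 strongest promoter regions in the pooled list (circles) and of the strongest overlapping region in replicate 1 (squares) and replicate 2 (triangles); no square or triangle means that no region overlapped. Pooled signals run from 14.2 to 27.1, replicate 1 from 4.52 to 16.2 and replicate 2 from 2.18 to 10.8, and each list has its own scale.

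Agreement between the replicates was low at promoters and close to that elsewhere. Of the 4258 promoter regions, 2609 (61.3%) overlapped a replicate 1 region by at least 1 bp, 1721 (40.4%) a replicate 2 region and 765 (17.97%) both, while 693 overlapped neither. Among the other autosomal regions 17.1% overlapped both. For promoter regions of q below 0.05 the share in both was 58.0% (148 of 255), beside 56.9% of other autosomal regions of q below 0.05. The pooled list was called on the reads of both replicates, so these overlaps are not independent of it. Taken directly from the replicate lists, 800 of 4098 promoter regions of replicate 1 (19.5%) overlapped a region of replicate 2, against 17.3% of other autosomal regions. In the other direction 790 of 3306 promoter regions of replicate 2 (23.9%) overlapped one of replicate 1, against 21.7%. Among those 800 overlapping regions the signals of the replicates had a Spearman correlation of −0.02 across regions, which share a genome position and control but not a library. For the 3477 other autosomal regions of replicate 1 that overlapped replicate 2 it was 0.036, also near 0.

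Few promoter regions were strong in both replicates. A rank of 1000 or better in both was reached by 4 promoter regions (0.0939%), beside 0.0806% of other autosomal regions, so the promoter share lay near the background. Besides cdc-48.1 and wwp-1 these were rpl-3, which encodes a protein of the large ribosomal subunit, and ZC395.5. The rpl-3 region lay 241 bp upstream of the start, with a pooled signal of 13.5 and ranks of 966 and 768. The ZC395.5 region lay 131 bp upstream, with a pooled signal of 12.5 and ranks of 910 and 289, and a snoRNA gene, ZC395.12, starts within 500 bp of its summit. At a limit of 2000 there were 9, adding hsp-1, T19A6.1, met-1 (a histone methyltransferase gene), C10G8.4 and the region between htz-1, which encodes the histone variant H2A.Z, and wapl-1. That last region had a pooled signal of 7.84, no q below 0.05, and ranks of 452 and 1229. The share of other autosomal regions at the limit of 2000 is not given here, so these 9 stand without a background. ZC395.5, met-1, C10G8.4 and htz-1 were singled out after their values were seen.

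**Figure D4:**
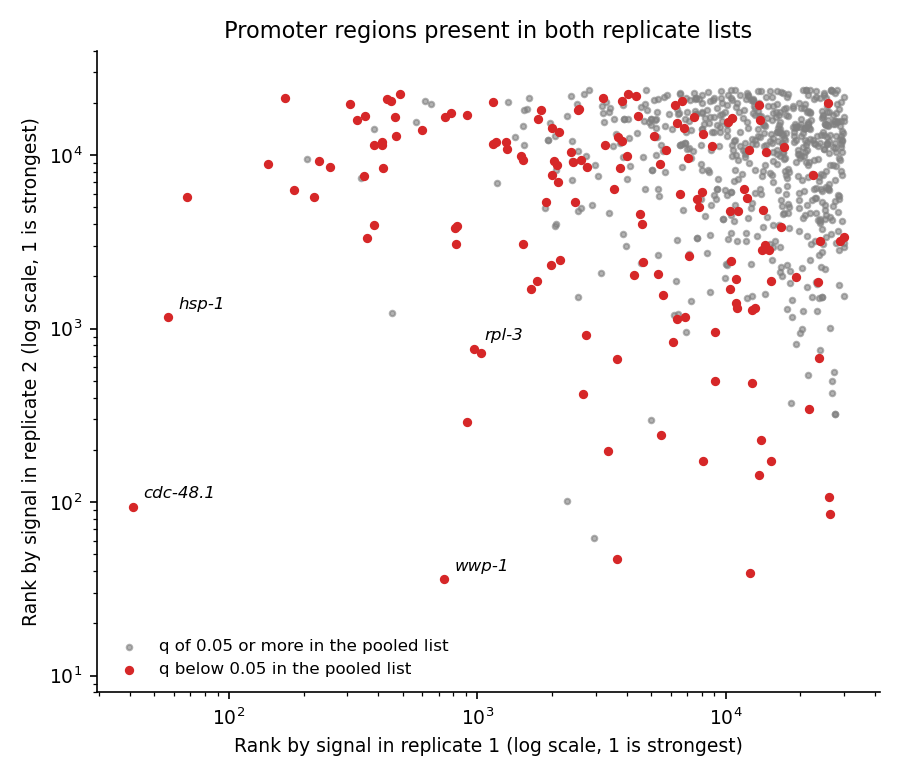
Each point is 1 of the 765 promoter regions that overlap a region of both replicate lists, placed by the rank of the strongest overlapping region in replicate 1 and in replicate 2 on log axes (1 is strongest), red where the pooled q is below 0.05. Many red points rank high in 1 list and low in the other, and cdc-48.1 (41 and 94) stands alone at the lower left.

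A promoter region lay at 4225 of the 17242 autosomal protein-coding genes, or 24.5%, and one of q below 0.05 at 271 genes, 1.57%. Of the regions, 3923 served 1 gene, 329 served 2 and 6 served 3. Of the genes, 3894 had 1 region, 291 had 2 and 40 had 3 or more, with a maximum of 4 at dhhc-4, efhd-1 and vhp-1, the last a MAP kinase phosphatase gene; these 3 were named after their counts were seen. Genes with more annotated starts have more sequence inside the limits, and larger shares of them had a region: 20.95% of 12691 genes with 1 start did, 29.4% of those with 2, 38.6% with 3, 42.7% with 4 and 54.2% of 397 genes with 5 or more. The 256 regions upstream of starts on both strands, in head-to-head gene pairs, had a median signal of 5.94 against 5.74 for the other 4002. They overlapped both replicates in 22.7% of cases against 17.7%, but reached a q below 0.05 in 4.30% against 6.10%.

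In replicate 1 a promoter region lay at 4073 genes (23.6%) and in replicate 2 at 3335 (19.3%). The lists shared 1050 genes, which is 25.8% of the replicate 1 genes and 31.5% of the replicate 2 genes. Of the 4225 genes of the pooled list, 879 also had a promoter region in both replicate lists and 730 in neither.

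Among 30 gene lists, genes for cytosolic ribosomal proteins had promoter regions in larger shares than coding genes at large in the pooled list and in both replicate lists. The same held for 12 of the 30 lists in all, among them cuticle collagens, nuclear hormone receptors, homeobox factors and lipid metabolism genes. These shares take no account of the length inside the limits, which was longer in some lists, as in lipid metabolism genes (a mean of 1017.5 bp). The ribosomal list is described in detail because it was singled out after its values were seen. In the pooled list 32 of 79 had one, 40.5% (95% exact interval 29.6% to 52.1%), beside 24.5% of all autosomal coding genes. In replicate 1 it was 29 genes, 36.7% against 23.6%, and in replicate 2 it was 37 genes, 46.8% against 19.3%. Both replicates placed a region at 15 of the 79, or 18.99%, against 6.09% of all genes. A q below 0.05 was found at 7 of 79, 8.86% against 1.57%. The ribosomal genes had a mean of 654.6 bp inside the limits, against 749.6 bp for all genes, and the part of that length in the count was not tested. No test of a list was made. Some ribosomal genes share a region, as rpl-36 with rps-14 and rpl-39 with rps-30, so the genes are not independent.

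The 3 strongest ribosomal genes were rps-1, rpl-3 and rps-19, with pooled signals of 13.7, 13.5 and 11.9. The rps-1 summit lay 293 bp upstream of its start and also within the limits of the neighbouring gene ifet-1. That summit fell in an exon of a transcript not annotated as protein-coding. The region had a signal of 9.61 in replicate 1 and 2.08 in replicate 2. At rpl-3 the replicates gave 8.58 and 6.09, and both ranks were within the first 1000. At rps-19, 222 bp upstream and shared with hsr-9, they gave 7.63 and 2.40. The other 4 of q below 0.05, named after their values were seen, were rla-0 (11.6), rps-21 (11.3), rps-2 (10.9) and rpl-28 (10.2). Of these rla-0, rps-2 and rpl-28 had no promoter region in replicate 1. Over the 32 genes the best region stood at a median of the 70.4th percentile of autosomal signal, against the 53.6th for all genes with a region. This was not particular to ribosomal genes, since 5 other lists had a higher median, among them translation factors (79.997), homeobox factors (76.2), respiratory chain genes (74.1) and Rab GTPases (71.4). In the single replicates the medians were 62.2 and 58.6, against 54.4 and 52.9.

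Most other lists of housekeeping genes were nearer to the 24.5% of all genes. Regions lay at 8 of 33 proteasome genes (24.2%), 9 of 32 translation factor genes (28.1%), 10 of 32 aminoacyl-tRNA synthetase genes (31.2%), 11 of 37 respiratory chain and ATP synthase genes (29.7%), 7 of 34 splicing factor genes (20.6%) and 7 of 21 ubiquitin-conjugating enzyme genes (33.3%). Vacuolar ATPase subunits and Rab GTPases, the latter regulators of vesicle traffic, each had 7 of 17 (41.2%), with exact intervals that run from 18.4% to 67.1%. Both lists also exceeded the shares of all genes in each replicate, with 35.3% and 29.4% for the ATPase subunits and 52.9% and 41.2% for the Rab genes. The strongest were vha-16 at rank 645 and rab-7 at rank 1418 of the pooled list. Heat shock protein genes had 5 of 19 (26.3%), and apart from hsp-1 the strongest, at hsp-90, ranked 17172.

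Of the lists of 17 or more genes, histone genes had the smallest share, with regions at 3 of 68 (4.41%, exact interval 0.919% to 12.4%), namely the H3.3 genes his-70 and his-72 and the gene his-37. Their shares were 2.94% in replicate 1 and 13.2% in replicate 2. Most worm histone genes are near-identical copies in clusters, where short reads may not map to 1 place, and the authors' handling of such reads is not given in the sources used here; its part in the count was not tested. The major sperm protein genes, another family of near-identical copies, had 4 of 31 (12.9%). Regions lay at 53 of 305 F-box genes (17.4%), 41 of 237 C-type lectin genes (17.3%) and 262 of 1276 chemoreceptor genes (20.5%). All are large families, and all lay below the 24.5% of all genes. In the same order they had means of 636.0, 629.3 and 633.8 bp inside the limits, against 749.6 bp for all genes. The part of that length in the counts was not tested. In replicate 1, where 23.6% of all genes had a region, the shares were 16.7%, 16.9% and 22.6%, so chemoreceptors stood near the background there. In replicate 2, where 19.3% of all genes had a region, the shares were 12.5% for F-box genes, 14.7% for chemoreceptors and 18.99% for lectins. The lectins thus stood near the background there.

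**Figure D5:**
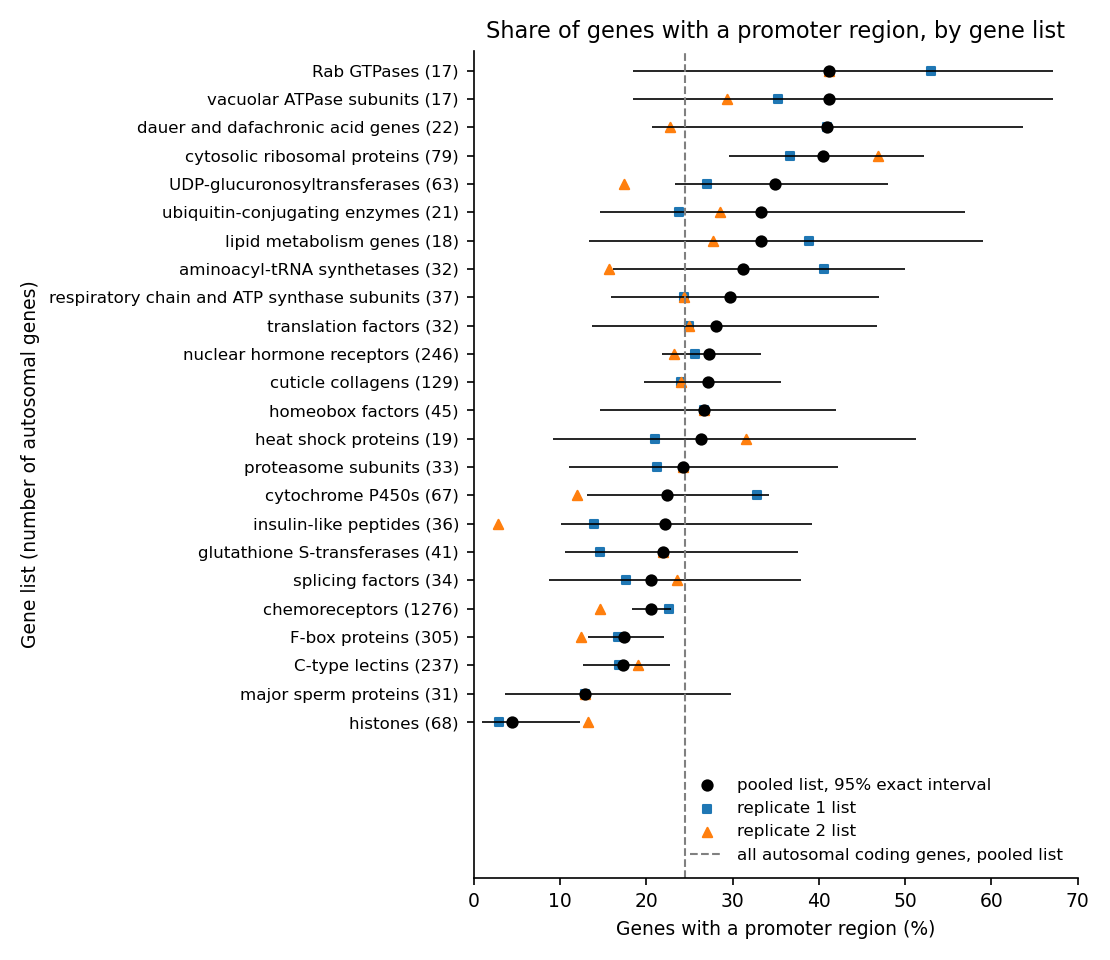
Points give the percent of the autosomal genes of each list with a promoter region in the pooled list (black, with 95% exact intervals for counting error), replicate 1 (blue) and replicate 2 (orange), for the lists of 17 or more genes; the dashed line marks all autosomal coding genes, 24.5%. Ribosomal protein genes lie to the right of the line for all 3 kinds of point, as do several other lists, and histone genes to its left.

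In the pooled list, hormone signalling, cuticle and detoxification genes mostly had shares near the 24.5% of all genes, with UDP-glucuronosyltransferases the highest of them. Some of these shares differed between the replicates. Nuclear hormone receptor genes, the family of DAF-12 itself, had regions at 67 of 246 (27.2%). They were led by nhr-47, nhr-123 and nhr-202, at ranks 274, 797 and 942 of the pooled list. Their ranks in replicates 1 and 2 were lower, 4020 and 9915 at nhr-47 and 3212 and 21264 at nhr-202. At nhr-123 they were 25852 and 19996. The nhr-47 region lay 21 bp downstream of that start and also served dnj-19. Cuticle collagens had 35 of 129 (27.1%), led by col-115 (signal 15.1), which ranked 382 and 3981 in the replicates. UDP-glucuronosyltransferase genes had 22 of 63 (34.9%) and 0 of q below 0.05, cytochrome P450 genes 15 of 67 (22.4%), glutathione S-transferase genes 9 of 41 (21.95%), homeobox genes 12 of 45 (26.7%) and insulin-like peptide genes 8 of 36 (22.2%). In replicate 2 the insulin-like genes had 1 region among 36 (2.78%), and in replicate 1 there were 5 (13.9%).

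Genes of the dauer and dafachronic acid pathway had regions at 9 of 22 (40.9%), but none reached a q below 0.05. They had a mean of 1230 bp inside the limits against 749.6 bp for all genes, and the part of that length in the count was not tested. The best of them was at daf-19, an RFX transcription factor gene, at rank 6572. The corepressor gene din-1 had 2 regions, the stronger with a signal of 6.75 (rank 9296), 120 bp upstream of a start, at rank 8666 in replicate 1 and absent from replicate 2. The FOXO gene daf-16 had 3, the strongest with a signal of 6.51 (rank 10456). Protein-coding heterochronic genes, which order larval stages, had 7 of 11 (63.6%) with a mean of 1398 bp inside the limits, and nhl-2 alone reached a q below 0.05. The lin-29 region, 126 bp upstream, was low in the pooled list (signal 4.69, rank 23840) but ranked 1388 in replicate 1, and it was absent from replicate 2. The lin-41 region, 296 bp upstream, had a pooled signal of 5.09 and was in neither replicate list, and lin-28 and lin-42 had no region. daf-9 and fard-1 are on the X chromosome and outside the rule.

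Lipid genes had 6 of 18 (33.3%), with a mean of 1017.5 bp inside the limits against 749.6 bp for all genes. The part of that length in the count was not tested. The strongest region was at the fatty acid desaturase gene fat-4, 222 bp upstream of its start. It ranked 897 in the pooled list and 330 in replicate 1, and was absent from replicate 2. The short lists of tissue markers had regions at 0 of 6 intestine, 0 of 7 germline, 2 of 4 muscle, 2 of 6 neuron and 3 of 6 hypodermis genes, none of q below 0.05. In replicate 2 the intestine list had 2 and the hypodermis list 0, so these small counts differed between the lists. The neuron list includes unc-119 (rank 3344), which is the mutated gene of the strain's background and is commonly carried on such transgenes as a rescue marker.

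DAF-12 hexamers were about as frequent in promoter regions as elsewhere. Within 100 bp of the summit AGTGCA or AGGACA, on either strand, was present in 478 promoter regions (11.2%), against 10.3% of other autosomal regions and 11.2% of 25190 windows of 201 bp centred 200 bp upstream of every coding start. Among promoter regions of q below 0.05 the share was 12.5% (32 of 255), beside 12.5% of other autosomal regions of q below 0.05. AGTGCA alone was in 7.26% of promoter regions, 9.41% of those of q below 0.05 and 6.81% of all promoter windows, and AGGACA in 4.27%, 3.92% and 4.77%. Among other autosomal regions AGTGCA was in 6.17%, and in 7.87% of those of q below 0.05, and AGGACA in 4.45% and 5.12%. Promoter regions with a hexamer had a median signal of 5.70 and those without 5.76. Of the 25 strongest promoter regions 1, at Y97E10AR.1, held a half-site. The direct repeat of AGTGCA with 5 bases between copies was in 0 of 4258 promoter regions, which allows a share of up to 0.0705%, and in 0 of the 25190 windows, while 0.0151% of other autosomal regions held it.

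Shares of most other motifs lay near those of all promoter windows. TATAAA was in 25.04% of promoter regions and 24.3% of all promoter windows, and TGATAA, the site form of GATA factors, in 21.9% and 20.8%. The GC box GGGCGG was in 3.76% of promoter regions, 1.57% of those of q below 0.05 and 4.86% of all windows. GAGAGAGA was in 2.07% and 2.60%, the E-box CACGTG in 3.36% and 3.66%, the AP-1 site TGACTCA in 2.02% and 2.48%, and the run TTTTTTTT in 24.03% and 24.9%. TTTCAG, the splice acceptor consensus, was in 37.0% of promoter regions, 31.4% of those of q below 0.05, 38.2% of other autosomal regions and 31.5% of promoter windows. TCGCGCAGG, part of a motif known from X chromosome recruitment sites of dosage compensation, was in 1 promoter region. Each motif was read on both strands, and TATAAA and the T run can overlap other AT-rich matches. Median GC content was 32.8% in promoter regions and in other autosomal regions, against 33.8% in all promoter windows. Bases soft-masked as repeats in the RefSeq genome made up a mean of 36.7% of the 201 bp at promoter summits, between the 18.6% of other summits in coding exons and the 48.4% of those in introns.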

How the data were processed

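The authors deposited narrowPeak lists on ce10 and ce11. Per the labels' text lists, the replicate lists and the pooled list were called on ChIP alignments with a control file, and the thresholded list (IDR) derives from these. No source used here names the aligner or the peak caller, or states which IDR limit was applied. Each deposited region has a signal and a −log10 q-value. The ce11 lists were used, and the ce10 lists were not used here. The pooled and replicate 1 lists hold 30000 regions and replicate 2 holds 23934, and depth is unknown.

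Summits were matched to Ensembl release 115 starts of WBcel235, which has the ce11 coordinates, and 0 pooled regions ran past a chromosome end. Overlap needs 1 bp, and replicate values are those of the strongest overlapping region. Sequences are from RefSeq WBcel235. Python 3.11.15, numpy 2.4.6, pandas 2.3.3, scipy 1.17.1, matplotlib 3.10.9 and bedtools 2.31.1 were used, and 5 checks on simulated data recovered the planted answers.

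Named genes were those of the 25 strongest promoter regions, of IDR peaks, of the 3 strongest per gene list, and a fixed set of pathway genes. 1 of these regions is not reported here. Other genes are marked in the text as chosen after their values were seen. Members and lists were chosen with earlier results of these data known, and the chemoreceptor prefixes were narrowed after the data were seen. Alternatives changed the limits, the starts, the list, the overlap and the motif window.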

Additional observations from a re-analysis of the deposited data

How the results depend on the processing

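Of 58 combinations of result and alternative, 26 stayed within the spread between the replicate lists, the counting interval or 1.5 times a count, and 32 moved. That spread comes from the same 2 replicate lists that also serve as alternatives. For the percent of q below 0.05 it was so wide that 17.5% in replicate 1, against 5.99% in the pooled list, counts as having stayed. The count of 26 therefore does not measure stability for that result. With limits of 1000 bp upstream and 200 bp downstream there were 7401 promoter regions (30.7% of autosomal regions on 27.1% of the bases), 428 of q below 0.05, a median percentile of 51.4, a region at 39.9% of genes and at 57.0% of ribosomal protein genes. With 250 and 50 bp there were 2308 (9.57% on 7.81% of the bases), 141 of q below 0.05, a percentile of 51.5, 13.4% of genes and 21.5% of ribosomal protein genes. These settings widen or narrow the windows themselves. With 1 start per gene the promoter share was 14.6%, on 11.7% of the bases. The share was 19.5% among regions of q below 0.05 (255 regions), 16.7% among IDR peaks and 20.1% among the upper 1000. Hexamers were in 12.5% of promoter regions of q below 0.05, and ribosomal protein genes had a region of q below 0.05 in 8.86% of cases.

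With 1 replicate left out, promoter regions numbered 3306 to 4098, their share was 16.9% to 17.3%, and 717 to 2024 of them (17.5% to 61.2%) had a q below 0.05, where replicate 1 stands at the low and replicate 2 at the high end; other autosomal regions had 16.1% and 58.7%. The percentile was 51.9 to 52.4, genes with a region 19.3% to 23.6%, hexamers 10.96% to 12.4% and ribosomal protein genes 36.7% to 46.8%. The cause was not tested. Overlap with both replicates was 8.67% for summits within 100 bp (7.63% elsewhere) and 11.6% with 50% of the region covered (10.3% elsewhere). Hexamers were in 5.43% of promoter regions within 50 bp (5.09% elsewhere) and 21.8% within 200 bp (20.15% elsewhere). The ribosomal settings and the hexamer share per replicate were added after seeing the data. No paired analysis was possible because all samples belong to the same group. With no read numbers in the files, limits set by depth were not assessed.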

Other observations

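Structural RNA genes lay beside few promoter regions. A tRNA, snoRNA, snRNA, rRNA or spliced leader gene started within 500 bp of the summit at 54 of 4258 (1.27%), beside 1.15% of other autosomal regions. The neighbour was a snoRNA gene at 29, a tRNA gene at 18 and an snRNA gene at 7. The strongest were the regions at pcyt-2.1 (signal 15.8), beside the snoRNA gene Y37E3.20, and at ZC395.5 (12.5), beside ZC395.12. Next came mnk-1 (10.6), a kinase gene, and zen-4 (10.5), a kinesin gene of cytokinesis; both were absent from replicate 2. These genes were named after their values were seen.

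Promoter regions of q below 0.05 lay towards the middle of the chromosomes. The central 50% of each autosome held 71.8% of them, 60.7% of all promoter regions and 54.9% of the bases inside the promoter limits. Other autosomal regions moved the same way, from 56.5% of all to 68.6% of those of q below 0.05. The difference between promoter and other regions was not tested.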
